A study of Mus musculus with 27 samples.

Results

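Expression of 9 genes of the tumour necrosis factor (TNF) superfamily was described across 9 sorted mouse T cell groups. The genes were the receptors Tnfrsf4, Tnfrsf18, Tnfrsf1b, Tnfrsf9 and Cd27, the ligands Tnfsf11, Lta and Ltb, and the adaptor Traf1. They were taken as a list of named genes, drawn up with earlier results of these data known, and make up 9 of 18194 genes and 14 of 34958 probe sets with a single gene symbol. Messenger RNA was measured on 27 Affymetrix arrays, 3 for each group, from T cells of Balb/c mice. Thymocytes of 3 CD24 levels, high, intermediate and low (CD24hi, CD24int, CD24lo), had been sorted into Foxp3+GFP+ cells and Foxp3-GFP- cells, which gave 6 groups. The seventh group was thymic Treg precursor cells, described by the series title as CD4 single-positive, Foxp3GFP- and CD25+, and the last pair, from lymph node, was peripheral Tregs and naive T cells. Below, Foxp3- cells, groups and arrays are those of the 3 CD24 levels, and precursors are named apart. Regulatory T cells (Tregs) are defined by the transcription factor Foxp3, GFP reports its expression, and thymocytes lose the surface protein CD24 during maturation. The labels do not give the age or sex of the mice, the reporter construct of the lymph node cells or the CD24 level of the precursors, and they carry the word Treg on the Foxp3- groups too, which the series design names conventional T cells. The series was designed to compare Foxp3+ subsets of different maturity with their Foxp3- counterparts.

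Receptors of this superfamily are surface proteins bound by trimeric ligands, and most of the co-stimulatory members lack a death domain. Such receptors recruit TRAF adaptors and activate NF-kB through the canonical or the alternative pathway, which promotes survival and proliferation of T cells. In the mouse thymus, medullary epithelial cells receive RANK ligand, CD40 ligand and lymphotoxin signals from developing T cells, while Treg precursors themselves receive signals through GITR, OX40 and TNFR2.

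Levels are log2 intensities, given as the mean ± SD of the 3 arrays of a group, and differences are log2 differences ± standard error. The test was that of limma, and a call required an adjusted p below 0.05 after adjustment over all 18194 genes of the comparison. An array intensity does not allow the level of a gene to be set against that of another, so levels are compared between groups only. Nothing in the labels says whether the 3 arrays of a group came from separate mice, so the spread behind the p-values is that between these arrays and may be technical. In sorted populations, a lower share of expressing cells and less RNA per cell cannot be told apart.

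The labels were checked against defining genes. Foxp3 was 9.90 to 10.07 as a group mean in the 4 Foxp3+ or Treg groups and 3.80 to 4.17 in the other 5. Il2ra, which encodes CD25, was 8.16 ± 0.29 in precursors, 9.90 to 10.26 in the Foxp3+ and Treg groups and 4.22 to 4.45 in the rest. Cd24a fell in the order of the gates, from 10.93 ± 0.24 to 6.00 ± 0.82 in Foxp3- and from 10.34 ± 0.50 to 7.63 ± 0.40 in Foxp3+ cells. Cd3e lay between 10.60 and 10.93 in every group, but Cd3e and Cd4 as a pair were less even. Of these 2, 1 passed as lower in Foxp3- CD24lo than in Foxp3- CD24hi (median difference of the pair -0.62) or CD24int cells (-0.46). In Foxp3+ against Foxp3- cells 1 also passed as lower at CD24hi (-0.48) and CD24int (-0.32), as it did in precursors against Foxp3- CD24hi cells (-0.37). The Foxp3- CD24lo group stood apart in markers of innate-like T cells. The summed level of 7 measured natural killer (NK) and NKT cell markers was 12.08 to 12.34 there, against 7.33 to 7.72 in Foxp3- CD24hi and 8.24 to 9.38 in Foxp3- CD24int cells, 10.81 to 11.15 in the thymic Foxp3+ groups, 10.99 to 11.04 in lymph node Tregs and 9.41 to 9.78 in naive T cells. The sum of 4 gamma delta T cell markers was 13.35 to 13.46 in Foxp3- CD24lo cells, against at most 10.67 on any array of another group. Zbtb16, the transcription factor of innate-like lineages, was 10.90 ± 0.28 in that group and Trgv4, a gamma variable segment, was 12.38 ± 0.06. One replicate of the Foxp3- CD24hi group, replicate 3, had a summed level of 4 liver genes of 12.50, while each of the other 26 arrays was at or below 6.98. The comparisons with Foxp3- CD24hi cells are also given without that array.

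Some of the genes are close neighbours, while Cd27 (chromosome 6), Tnfsf11 (chromosome 14) and Traf1 (chromosome 2) are each alone among the 9. Tnfrsf4 and Tnfrsf18 are neighbours on mouse chromosome 4, which also holds Tnfrsf1b and Tnfrsf9, and Ltb, Tnf and Lta follow each other on chromosome 17. Promoter windows of 300 bases (250 before to 50 after an annotated start) from RefSeq, build GRCm38.p6, were matched for all 9 genes, in 10 windows because Tnfrsf9 has 2 starts. They are shown for the neighbouring pair Tnfrsf4 and Tnfrsf18, for the chromosome 17 ligands and for Tnfrsf9, all higher in Foxp3+ cells. Tnfsf11, which was not higher in thymic Foxp3+ cells, is shown beside them. Windows of Tnfrsf1b, Cd27 and Traf1, also higher in Foxp3+ cells, are not shown. Capitals mark the palindromic STAT5-type motif TTCNNNGAA and the NF-kB-type motif GGGNNNTTCC, the latter searched on both strands.
Tnfrsf4, chr4:156013445-156013744, plus strand: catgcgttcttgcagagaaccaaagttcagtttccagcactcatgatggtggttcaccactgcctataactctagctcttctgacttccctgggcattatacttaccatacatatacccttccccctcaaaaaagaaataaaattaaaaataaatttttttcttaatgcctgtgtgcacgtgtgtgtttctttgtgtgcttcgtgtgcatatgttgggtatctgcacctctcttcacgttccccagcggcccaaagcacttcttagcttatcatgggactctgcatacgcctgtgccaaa
Tnfrsf18, chr4:156026072-156026371, plus strand: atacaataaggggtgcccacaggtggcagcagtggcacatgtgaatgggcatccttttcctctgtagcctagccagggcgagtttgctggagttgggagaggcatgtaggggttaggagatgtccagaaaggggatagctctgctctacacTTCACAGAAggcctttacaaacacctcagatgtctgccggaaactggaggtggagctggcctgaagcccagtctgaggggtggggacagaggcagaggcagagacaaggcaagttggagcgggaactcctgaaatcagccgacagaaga
Tnfrsf9, the second start, chr4:150927749-150928048, plus strand: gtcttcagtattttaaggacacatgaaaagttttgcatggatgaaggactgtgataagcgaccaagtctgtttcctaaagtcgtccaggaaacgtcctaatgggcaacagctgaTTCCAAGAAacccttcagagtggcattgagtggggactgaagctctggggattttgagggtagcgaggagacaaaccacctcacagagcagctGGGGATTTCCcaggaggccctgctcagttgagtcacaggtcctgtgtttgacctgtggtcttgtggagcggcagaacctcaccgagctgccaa
Lta, chr17:35205302-35205601, minus strand: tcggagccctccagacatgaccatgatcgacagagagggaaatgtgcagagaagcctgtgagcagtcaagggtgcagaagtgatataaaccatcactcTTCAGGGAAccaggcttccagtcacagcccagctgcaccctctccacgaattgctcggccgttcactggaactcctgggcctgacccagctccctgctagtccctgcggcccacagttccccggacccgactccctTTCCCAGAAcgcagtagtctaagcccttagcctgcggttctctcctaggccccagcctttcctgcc
Ltb, chr17:35194257-35194556, plus strand: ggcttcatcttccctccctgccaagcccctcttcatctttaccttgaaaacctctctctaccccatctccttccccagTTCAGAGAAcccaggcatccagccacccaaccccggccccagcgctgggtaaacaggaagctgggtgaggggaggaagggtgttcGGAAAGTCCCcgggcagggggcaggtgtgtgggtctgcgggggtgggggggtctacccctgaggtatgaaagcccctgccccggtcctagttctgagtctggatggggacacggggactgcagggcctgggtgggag
Tnfsf11, chr14:78307994-78308293, minus strand: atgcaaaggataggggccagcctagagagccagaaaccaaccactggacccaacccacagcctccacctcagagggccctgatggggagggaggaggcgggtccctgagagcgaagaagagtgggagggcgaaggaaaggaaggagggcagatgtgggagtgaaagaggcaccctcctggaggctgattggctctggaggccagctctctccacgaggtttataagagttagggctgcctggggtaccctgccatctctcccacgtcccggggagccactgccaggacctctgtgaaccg
TTCNNNGAA was found in 5 of the 10 windows, those of Tnfrsf18, Tnfrsf1b, Tnfrsf9 (the second start), Lta and Ltb, and in 8.3% of 32851 RefSeq promoter windows of the same length. Lta held it at 2 positions, whose first bases lay at -152 and -16 from the start. GGGNNNTTCC was found in the windows of Tnfrsf9 (the second start, first base at -43) and of Ltb (on the opposite strand, at -87), and in 5.56% of all windows. The forkhead-type motif GTAAACA was found in Ltb alone among them (3.65% of all windows) and the AP-1-type motif TGANTCA in Tnfrsf9 alone (the second start, 7.81%), and no marked motif overlapped another. The windows of Tnfrsf4, Tnfsf11, Cd27, Traf1 and the other start of Tnfrsf9 held none of these letters, and a match describes the sequence only.

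In Foxp3+ against Foxp3- thymocytes, 8 of the 9 genes were higher in Foxp3+ cells at each CD24 level and Tnfsf11 was the exception. At CD24hi 8 rose and 1 fell, where 18% of all genes passed. At CD24int 8 rose and 1 did not pass, where 15.3% passed, and at CD24lo 8 rose and 1 fell, where 21% passed. The median difference of the 9 was 1.87, 1.90 and 1.40 at the 3 levels, while the median over all genes was 0.00, -0.01 and -0.01. In lymph node all 9 were higher in Tregs than in naive T cells, with a median of 1.56 against -0.04 over all genes, of which 12.4% passed. The arrays of the compared groups did not overlap for any of the 9 genes in these comparisons, except for Tnfsf11 at CD24int. Over all genes the arrays did not overlap for 30.4% at CD24hi, 25.6% at CD24int, 33.5% at CD24lo and 28.7% in lymph node. Since the 9 genes were listed with earlier results known, their counts and medians describe them and are no independent evidence of a direction. The summed level of the NK and NKT markers was also higher in Foxp3+ than in Foxp3- cells at CD24hi, where 3 of the 7 rose (Il2rb by 4.68 ± 0.18, Nkg7 by 3.59 ± 0.37 and Tbx21 by 0.97 ± 0.26), while 3 of 6 double-positive thymocyte markers fell. Il2rb encodes a chain of the IL-2 receptor that mouse Tregs also express. The part of these markers in the results was not tested.

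**Figure D1:**
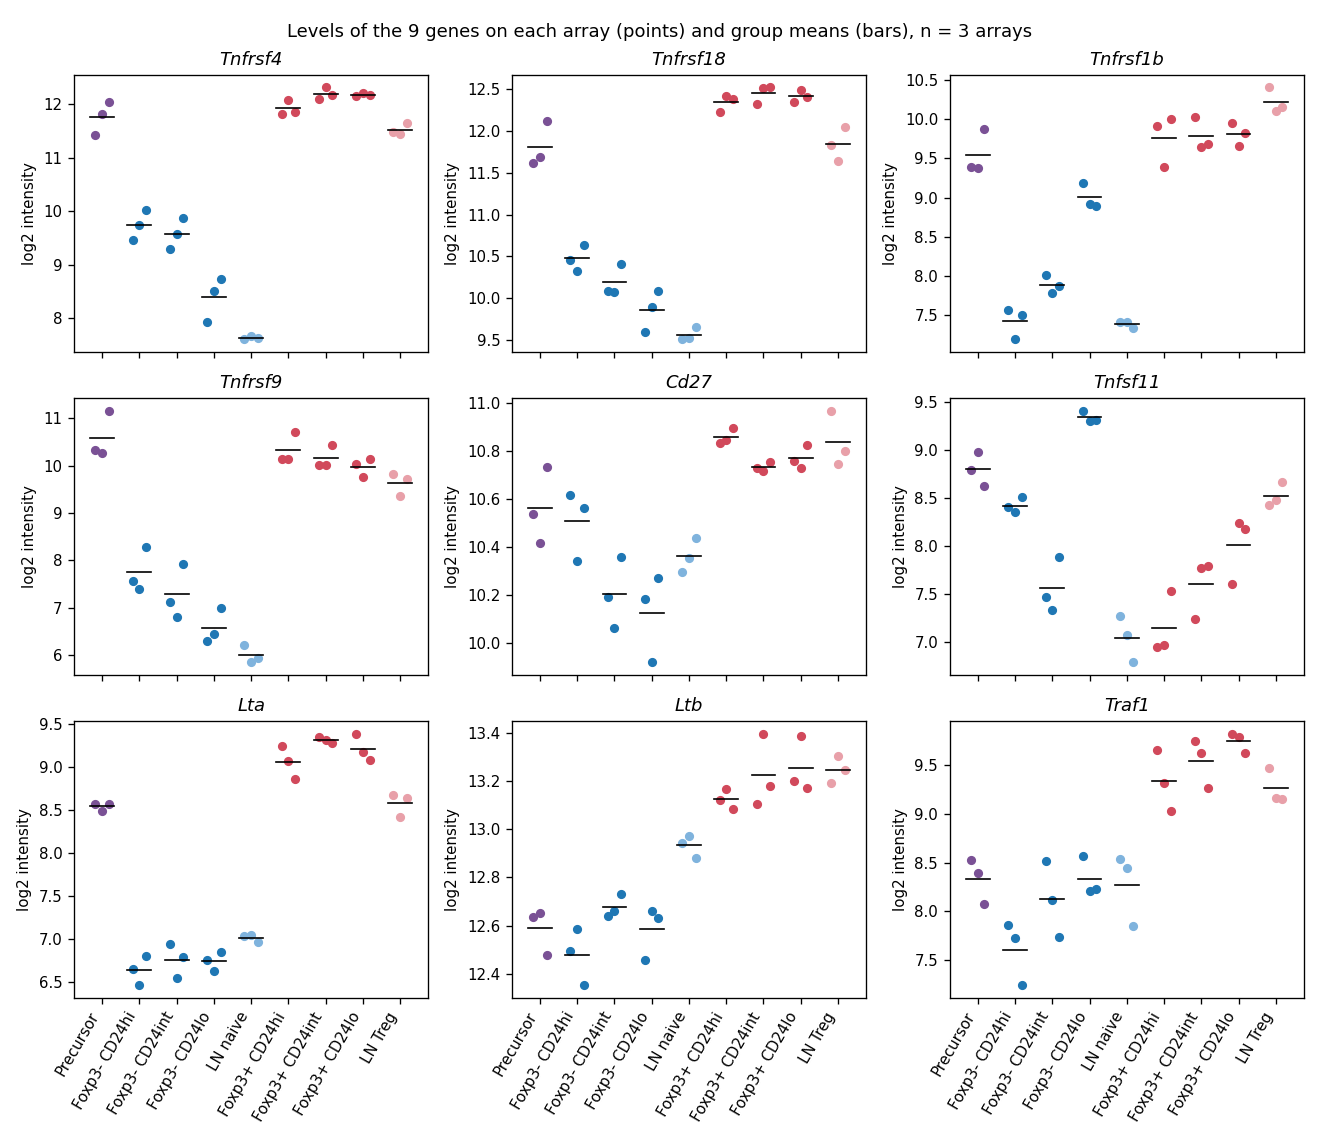
Log2 intensity of each of the 9 genes (vertical axes, which differ between panels) on the 27 arrays by group, with points for arrays and bars for the means of 3. Foxp3+ cells and lymph node Tregs lie above the Foxp3- groups for 8 genes, precursors lie near Foxp3+ cells for Tnfrsf4 (11.76 against 11.92 at CD24hi), and Tnfsf11 is highest in Foxp3- CD24lo cells (9.34).

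Tnfrsf4 encodes OX40, a co-stimulatory receptor that is constitutive on mouse Tregs and induced on other activated T cells. Its 3 arrays read 11.82, 12.08 and 11.85 in Foxp3+ CD24hi cells, 12.09, 12.31 and 12.17 at CD24int and 12.15, 12.20 and 12.17 at CD24lo. In Foxp3- cells they read 9.47, 9.73 and 10.02, then 9.29, 9.57 and 9.87, then 7.93, 8.50 and 8.73. Lymph node Tregs were at 11.47, 11.43 and 11.64 and naive T cells at 7.61, 7.66 and 7.63. Every Foxp3+ or Treg array was thus above every array of the CD24-gated Foxp3- groups and of naive T cells. The gated Foxp3- groups went down along the gates while the Foxp3+ groups did not. Precursors, also sorted as Foxp3GFP-, read 11.43, 11.82 and 12.04 and overlapped lymph node Tregs. The Foxp3+ minus Foxp3- difference was 2.18 ± 0.18 at CD24hi, 2.61 ± 0.18 at CD24int and 3.79 ± 0.18 at CD24lo (4.53-, 6.13- and 13.8-fold, adjusted p = 1.02e-09, 4.41e-11 and 3.17e-14). Lymph node Tregs exceeded naive T cells 14.7-fold (3.88 ± 0.18, adjusted p = 3.19e-14).

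Tnfrsf18 encodes GITR, a co-stimulatory receptor that is a surface marker of mouse Tregs. Foxp3+ cells held it at 12.34 ± 0.10, 12.45 ± 0.11 and 12.42 ± 0.07 in the order CD24hi, CD24int and CD24lo, and Foxp3- cells at 10.47 ± 0.16, 10.19 ± 0.19 and 9.86 ± 0.25. Lymph node Tregs were at 11.84 ± 0.20 and naive T cells at 9.56 ± 0.08. The lowest array of any Foxp3+ or Treg group, 11.64, was above the highest array of any CD24-gated Foxp3- group or of naive T cells, 10.64. Precursors, at 11.62 to 12.12, overlapped lymph node Tregs. The differences by Foxp3 were 1.87 ± 0.14, 2.27 ± 0.14 and 2.56 ± 0.14 in the thymus and 2.28 ± 0.14 in lymph node (adjusted p at most 3.1e-10 in each).

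Tnfrsf1b encodes TNFR2, the TNF receptor without a death domain, which in mice supports Treg expansion. Foxp3+ arrays read 9.91, 9.38 and 10.01 at CD24hi, 10.02, 9.64 and 9.69 at CD24int and 9.95, 9.65 and 9.83 at CD24lo, and lymph node Treg arrays 10.41, 10.11 and 10.16. Foxp3- arrays read 7.56, 7.20 and 7.50, then 8.01, 7.78 and 7.88, then 9.19, 8.91 and 8.90, and naive T cell arrays 7.41, 7.41 and 7.33. The Foxp3- CD24lo arrays were therefore the nearest of the Foxp3- groups to the Foxp3+ ones, without overlap. The difference by Foxp3 was 2.35 ± 0.16 at CD24hi and 1.90 ± 0.16 at CD24int, 0.81 ± 0.16 at CD24lo (1.75-fold, adjusted p = 0.000352) and 2.84 ± 0.16 in lymph node (7.15-fold, adjusted p = 1.02e-12).

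Tnfrsf9 encodes 4-1BB (CD137), a co-stimulatory receptor induced by antigen receptor signalling. It was 10.33 ± 0.32, 10.16 ± 0.24 and 9.98 ± 0.19 in Foxp3+ cells at CD24hi, CD24int and CD24lo, and 9.64 ± 0.24 in lymph node Tregs. Foxp3- cells were at 7.75 ± 0.48, 7.29 ± 0.58 and 6.59 ± 0.36, and naive T cells at 6.01 ± 0.19. All Foxp3+ and Treg arrays were above 9.3, and all arrays of the CD24-gated Foxp3- groups and of naive T cells were below 8.3. Precursors, at 10.27 to 11.16, overlapped Foxp3+ CD24hi cells. The differences were 2.57 ± 0.27, 2.87 ± 0.27 and 3.39 ± 0.27 in the thymus and 3.63 ± 0.27 in lymph node, that is 5.96-, 7.31-, 10.5- and 12.4-fold.

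Cd27 encodes a receptor for CD70 that is expressed on most T cells and moved little. Group means ran from 10.13 ± 0.18 in Foxp3- CD24lo to 10.86 ± 0.03 in Foxp3+ CD24hi cells. Foxp3+ cells exceeded Foxp3- cells by 0.35 ± 0.11 at CD24hi (adjusted p = 0.0244), 0.53 ± 0.11 at CD24int and 0.64 ± 0.11 at CD24lo, and Tregs exceeded naive T cells by 0.48 ± 0.11. The CD24hi call was lost without Foxp3+ CD24hi replicate 1 (adjusted p = 0.0515), 2 (0.0576) or 3 (0.0677) and without Foxp3- CD24hi replicate 2 (0.148).

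**Figure D2:**
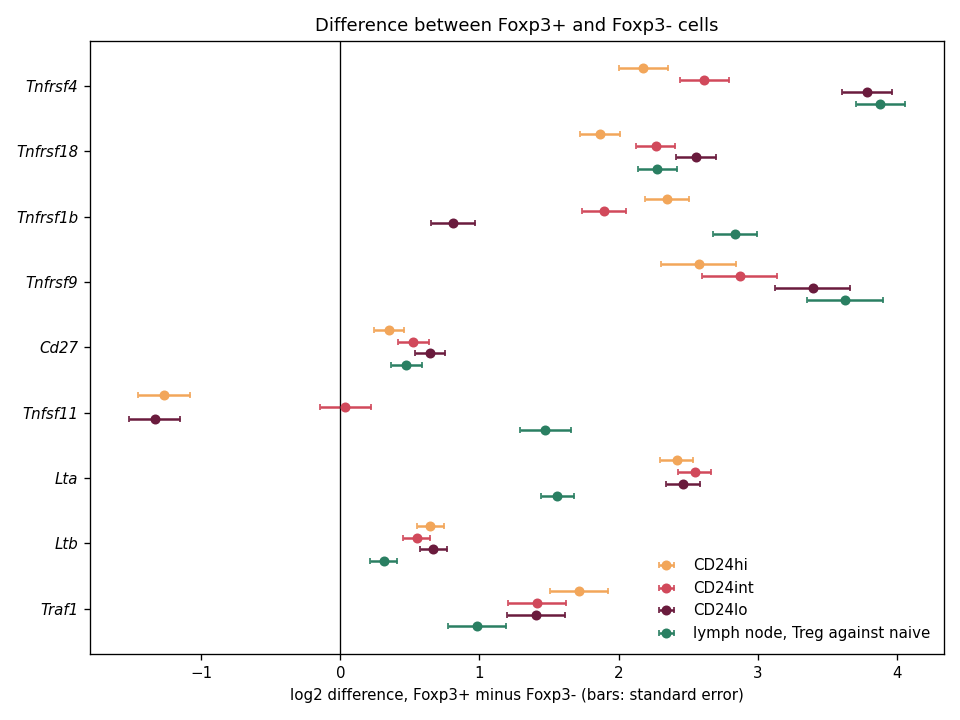
Log2 difference between Foxp3+ and Foxp3- cells (horizontal axis) for the 9 genes at CD24hi, CD24int and CD24lo and between lymph node Tregs and naive T cells, with bars of 1 standard error. Tnfrsf4 goes from 2.18 at CD24hi to 3.88 in lymph node, Tnfrsf1b is smallest at CD24lo (0.81), and Tnfsf11 is the gene with values on both sides of 0 (-1.33 at CD24lo, 1.47 in lymph node).

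Among the ligands, Tnfsf11 encodes RANK ligand, which signals to receptor activator of NF-kB on thymic epithelium and osteoclast precursors. Its arrays read 6.95, 6.97 and 7.53 in Foxp3+ CD24hi cells, 7.24, 7.77 and 7.79 at CD24int and 7.61, 8.23 and 8.17 at CD24lo. In Foxp3- cells they read 8.40, 8.35 and 8.51 at CD24hi, 7.47, 7.34 and 7.89 at CD24int and 9.41, 9.30 and 9.31 at CD24lo. Lymph node Tregs were at 8.42, 8.48 and 8.66 and naive T cells at 7.27, 7.08 and 6.79. Foxp3- arrays were above all Foxp3+ arrays at CD24hi and CD24lo, the arrays overlapped at CD24int, and in lymph node the Treg arrays were above the naive ones. Foxp3+ cells had 2.41-fold less at CD24hi (-1.27 ± 0.18, adjusted p = 1.25e-05) and 2.52-fold less at CD24lo (-1.33 ± 0.18, adjusted p = 4.11e-06). The difference at CD24int was 0.04 ± 0.18 (95% interval -0.34 to 0.42, adjusted p = 0.944), and in lymph node Tregs were 2.78-fold higher (1.47 ± 0.18, adjusted p = 1.41e-06).

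Lta encodes lymphotoxin alpha, which is secreted as a homotrimer or joins lymphotoxin beta at the cell surface. Its arrays read 9.24, 9.06 and 8.86, then 9.35, 9.31 and 9.27, then 9.38, 9.17 and 9.08 in Foxp3+ cells at CD24hi, CD24int and CD24lo, and 6.65, 6.46 and 6.80, then 6.94, 6.55 and 6.79, then 6.76, 6.62 and 6.85 in Foxp3- cells. Lymph node Tregs read 8.68, 8.42 and 8.63 and naive T cells 7.03, 7.04 and 6.97. The Foxp3+ arrays at CD24lo overlapped those at CD24hi and at CD24int, and lymph node Tregs were lower than every thymic Foxp3+ array. The difference was 2.42 ± 0.12, 2.55 ± 0.12 and 2.46 ± 0.12 in the thymus (5.34-, 5.85- and 5.51-fold) and 1.56 ± 0.12 in lymph node (2.95-fold, adjusted p = 3.05e-10).

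Ltb, the membrane-anchored partner in the lymphotoxin heterotrimer, was 13.12 ± 0.04, 13.23 ± 0.15 and 13.25 ± 0.12 in Foxp3+ and 12.48 ± 0.12, 12.68 ± 0.05 and 12.59 ± 0.11 in Foxp3- cells. Lymph node Tregs were at 13.25 ± 0.06 and naive T cells at 12.93 ± 0.05. No Foxp3+ array was below 13.08 and no Foxp3- array above 12.73, so the groups separated on a small scale. The differences were 0.65 ± 0.10, 0.55 ± 0.10 and 0.67 ± 0.10 in the thymus. In lymph node the difference was 0.31 ± 0.10 (adjusted p = 0.0323), and leaving out any single array of these groups lost the call (adjusted p from 0.0516 without Treg replicate 1, 0.0579 without naive replicate 2, 0.0776 without naive replicate 1 and 0.08 without Treg replicate 3 to 0.115 without Treg replicate 2 or naive replicate 3).

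Traf1 encodes a TRAF adaptor that is itself an NF-kB target and binds TRAF2. It was 9.33 ± 0.32, 9.54 ± 0.25 and 9.74 ± 0.10 in Foxp3+ and 7.61 ± 0.32, 8.12 ± 0.39 and 8.33 ± 0.20 in Foxp3- cells, 9.26 ± 0.18 in lymph node Tregs and 8.28 ± 0.37 in naive T cells. Every Foxp3+ or Treg array, from 9.02 up, exceeded every Foxp3- or naive array. The differences were 1.72 ± 0.21, 1.42 ± 0.21, 1.40 ± 0.21 and 0.98 ± 0.21, the last in lymph node (adjusted p = 0.00134). Without the Foxp3- CD24hi array with liver genes, the CD24hi differences of the 9 genes kept their calls, with Tnfrsf4 at 2.32, Lta at 2.50, Cd27 at 0.38 and Tnfsf11 at -1.22.

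Precursors, sorted as CD25+ and Foxp3GFP-, were compared with Foxp3- CD24hi cells and then with Foxp3+ CD24hi cells. Their Il2ra level lay between those of Foxp3+ and Foxp3- cells, as given above. The labels call them precursors but give them no place among the gates, and the groups to compare them with were chosen here. Against Foxp3- CD24hi cells 6 of 9 genes were higher and none lower, where 9.11% of all genes passed. Tnfrsf9 rose 7.14-fold (2.84 ± 0.27), with precursors at 10.34, 10.27 and 11.16. Tnfrsf1b rose by 2.13 ± 0.16, Tnfrsf4 by 2.02 ± 0.18 with precursors at 11.43, 11.82 and 12.04, Lta by 1.90 ± 0.12 and Tnfrsf18 by 1.33 ± 0.14. For 7 of the 9 genes all precursor arrays were above all Foxp3- CD24hi arrays, including Tnfsf11, which did not pass. The share of all genes without overlap was not counted for this comparison, so that number is no result about the 9 genes. Traf1 was 0.72 ± 0.21 higher (adjusted p = 0.0265), a call lost without precursor replicate 1 (adjusted p = 0.111) or 2 (0.0872) or the array with liver genes (0.54, adjusted p = 0.17), without which the other 5 kept their calls. Tnfsf11 (0.38 ± 0.18, adjusted p = 0.265), Ltb (0.11 ± 0.10) and Cd27 (0.06 ± 0.11) did not pass. The other Tnfsf11 probe set was level, at 6.51 ± 0.21 in precursors and 6.48 ± 0.07 in Foxp3- CD24hi cells, and its arrays overlapped. Precursors also had raised marker sums, 10.04 to 11.25 for double-positive thymocytes against 9.64 to 9.83 in Foxp3- CD24hi cells, 9.87 to 10.17 for NK and NKT cells and 8.61 to 10.67 for gamma delta T cells, and their part in these differences was not tested.

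From precursors to Foxp3+ CD24hi cells, 4 genes were higher, 1 lower and 4 did not pass, where 16% of all genes passed. Traf1 was 2-fold higher (1.00 ± 0.21, adjusted p = 0.00126), and Tnfrsf18 (0.54 ± 0.14), Ltb (0.53 ± 0.10) and Lta (0.51 ± 0.12) rose less. The Tnfrsf18 call was lost without precursor replicate 1 (0.44, adjusted p = 0.06) or 2 (0.47, adjusted p = 0.0512). Tnfsf11 was 3.13-fold lower (-1.65 ± 0.18, adjusted p = 5.31e-07), from 8.79, 8.98 and 8.62 in precursors. Tnfrsf4 (0.16 ± 0.18, 95% interval -0.21 to 0.52), Tnfrsf1b (0.22 ± 0.16, -0.11 to 0.54) and Tnfrsf9 (-0.26 ± 0.27, -0.82 to 0.30) did not pass, and their arrays overlapped. Cd27 did not pass either (0.29 ± 0.11, adjusted p = 0.0686), but passed when the fit was blocked by replicate number (adjusted p = 0.0131, where 24.4% of all genes passed) and without precursor replicate 3 (0.38, adjusted p = 0.0342). For Tnfrsf9, the brighter of its other probe sets read 9.00, 9.75 and 10.61 in precursors and 8.06, 8.77 and 9.58 in Foxp3+ CD24hi cells. There each precursor array was above the same-numbered Foxp3+ array, although the groups overlapped. Of the markers, 5 of 6 of double-positive thymocytes (median difference -1.49) and 3 of 4 of gamma delta T cells (-1.62) fell in the same comparison. Of 7 NK and NKT markers 3 fell and 1 rose (-0.53). Their summed level was 9.87 to 10.17 in precursors and higher, 10.81 to 11.01, in Foxp3+ CD24hi cells. The part of all these markers in the changes, that of Tnfsf11 included, was not tested. The 2 precursor comparisons and those at CD24hi share arrays, so their values are set side by side and not correlated.

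Along the CD24 gates, few differences passed in Foxp3+ cells. None of the 9 genes passed in limma from CD24hi to CD24int, where 0.286% of all genes passed, or from CD24int to CD24lo, where 0.0165% passed. At an unadjusted p under 0.05 the first step had 2 of the 9, Tnfsf11 (0.45 ± 0.18) and Lta (0.25 ± 0.12), where 7.67% of all genes were under it, and the second had 1, Tnfsf11 (0.40 ± 0.18), where 4.5% were. From CD24hi straight to CD24lo, a comparison added after the values were seen, Tnfsf11 rose 1.81-fold (0.85 ± 0.18, adjusted p = 0.00749) and the other 8 genes did not pass, where 3.1% of all genes passed. The Tnfsf11 call was lost without Foxp3+ CD24hi replicate 1 (adjusted p = 0.0572) or 2 (0.0506) and without Foxp3+ CD24lo replicate 2 (0.0658) or 3 (0.0541). The 95% interval of the difference was -0.11 to 0.62 for Tnfrsf4, -0.22 to 0.37 for Tnfrsf18 and -0.28 to 0.37 for Tnfrsf1b. With the replicate block Traf1 passed too (0.41, adjusted p = 0.0209), which made 2 genes, where 7.15% of all genes passed.

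In Foxp3- cells the genes moved apart between the gates. From CD24hi to CD24int only Tnfsf11 of the 9 passed, 1.81-fold lower (-0.85 ± 0.18, adjusted p = 0.00481, and -0.81 with adjusted p = 0.0272 without the array with liver genes), where 5.01% of all genes passed. With the replicate block Tnfrsf1b (0.47, adjusted p = 0.016), Traf1 (0.51, adjusted p = 0.00258) and Cd27 (-0.30, adjusted p = 0.025) passed too, which made 4, where 10% of all genes passed. From CD24int to CD24lo Tnfsf11 rose 3.42-fold (1.77 ± 0.18, adjusted p = 1.07e-07) and Tnfrsf1b 2.16-fold (1.11 ± 0.16, adjusted p = 1.17e-05), while Tnfrsf4 fell 2.28-fold (-1.19 ± 0.18, adjusted p = 2.22e-05), where 12% of all genes passed. Blocked by replicate number, Tnfrsf18 (-0.33, adjusted p = 0.0287) and Tnfrsf9 (-0.70, adjusted p = 0.00483) passed as well, which made 5 where 18.7% of all genes passed, and Tnfrsf9 passed without Foxp3- CD24int replicate 2 (-0.94, adjusted p = 0.0391). From CD24hi to CD24lo, again added after the values were seen, 3 genes rose (Tnfrsf1b 1.58 ± 0.16, Tnfsf11 0.92 ± 0.18 and Traf1 0.72 ± 0.21) and 4 fell (Tnfrsf4 -1.35 ± 0.18, Tnfrsf9 -1.17 ± 0.27, Tnfrsf18 -0.61 ± 0.14 and Cd27 -0.38 ± 0.11), where 16.7% of all genes passed. The calls of Cd27 (adjusted p = 0.0593) and Traf1 (0.115) were lost without the array with liver genes, and the other 5 were kept. Cd27 was also lost without Foxp3- CD24hi replicate 1 (0.0787) or Foxp3- CD24lo replicate 2 (0.126), and Traf1 without Foxp3- CD24lo replicate 1 (0.0846).

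The marker sums of NK and NKT cells and of gamma delta T cells were highest in the same Foxp3- CD24lo arrays, as given above. From CD24int to CD24lo all 7 measured NK and NKT markers and 3 of 4 gamma delta markers rose, while both measured naive T cell markers fell. Whether they account for any of the changes in Tnfsf11, Tnfrsf1b or Tnfrsf4 was not tested.

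The difference of the Foxp3 differences was tested as an interaction. From CD24hi to CD24int it passed for Tnfsf11 (1.30 ± 0.26, adjusted p = 0.00674, and 1.26 with adjusted p = 0.022 without the array with liver genes), where 1.54% of all genes passed. From CD24int to CD24lo it passed for Tnfrsf4 (1.17 ± 0.25, adjusted p = 0.00408), Tnfrsf1b (-1.09 ± 0.22, adjusted p = 0.00279) and Tnfsf11 (-1.37 ± 0.26, adjusted p = 0.00125), where 4.97% passed. From CD24hi to CD24lo, added after the values were seen, it passed for Tnfrsf4 (1.61 ± 0.25), Tnfrsf1b (-1.54 ± 0.22) and Tnfrsf18 (0.69 ± 0.20, adjusted p = 0.0289), where 8.54% passed. The Tnfrsf18 call was lost without Foxp3+ CD24hi replicate 1 (adjusted p = 0.0783), Foxp3+ CD24lo replicate 2 (0.0732) or 3 (0.0535), Foxp3- CD24lo replicate 1 (0.107) or Foxp3- CD24hi replicate 3 (0.0877), the array with liver genes, without which Tnfrsf4 (1.47) and Tnfrsf1b (-1.58) kept theirs. Between CD24hi and CD24lo the difference of Lta moved by 0.05 ± 0.17 (95% interval -0.30 to 0.39) and that of Ltb by 0.02 ± 0.14 (-0.26 to 0.30). For Tnfrsf4 the gap thus widened as the Foxp3- level fell, and for Tnfrsf1b it narrowed as the Foxp3- level rose.

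**Figure D3:**
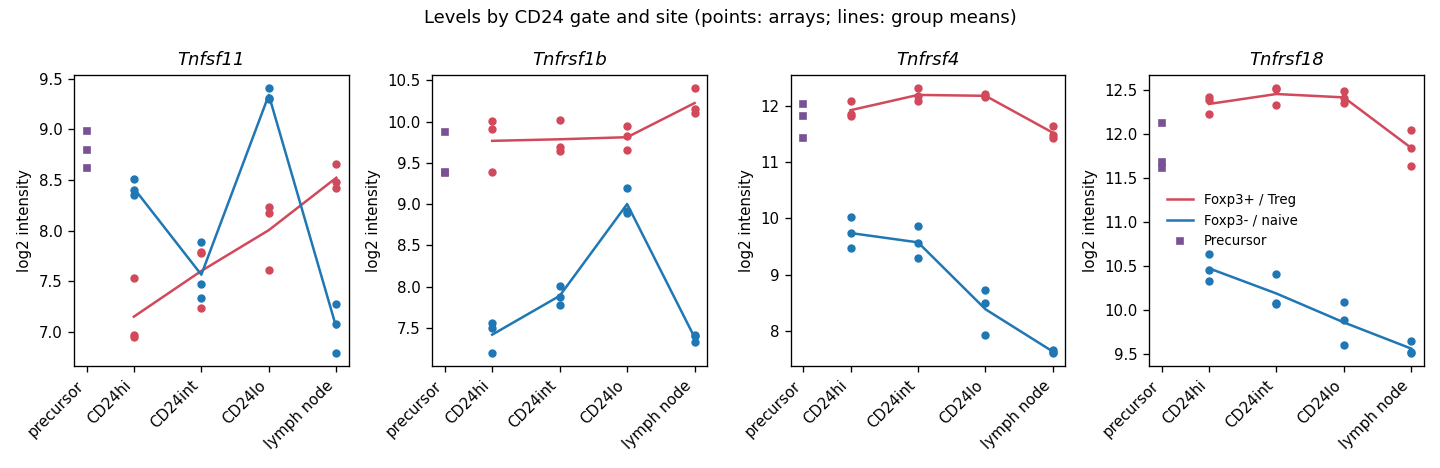
Log2 intensity (vertical axes) of Tnfsf11, Tnfrsf1b, Tnfrsf4 and Tnfrsf18 by CD24 gate and in lymph node, with points for arrays, lines for group means and squares for precursors. In Foxp3- cells Tnfrsf1b goes from 7.42 at CD24hi to 9.00 at CD24lo and is 7.39 in naive T cells, Tnfrsf4 goes from 9.74 to 8.39, and Tnfsf11 is lowest of the thymic gates at CD24int (7.56).

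Lymph node Tregs were compared with Foxp3+ CD24lo thymocytes, and naive T cells with Foxp3- CD24lo thymocytes, which differ from them in innate-like markers. In Tregs 3 genes were lower, where 5.93% of all genes passed: Lta (-0.63 ± 0.12, adjusted p = 0.000983), Tnfrsf4 (-0.66 ± 0.18, adjusted p = 0.025) and Tnfrsf18 (-0.58 ± 0.14, adjusted p = 0.0122). The Tnfrsf4 call was lost without Treg replicate 1 (adjusted p = 0.0848) or 2 (0.0947) and without Foxp3+ CD24lo replicate 1 (0.0685), 2 (0.0768) or 3 (0.074), and that of Tnfrsf18 without Treg replicate 2 (0.0912) or Foxp3+ CD24lo replicate 2 (0.0586), which left 1 of the 9. Tnfsf11 (0.52 ± 0.18, adjusted p = 0.118) and Tnfrsf1b (0.41 ± 0.16, adjusted p = 0.156) did not pass, although their arrays did not overlap. With the replicate block 5 genes passed, where 10.6% of all genes did, among them Tnfrsf1b (adjusted p = 0.0343) and Traf1 (-0.48, adjusted p = 0.00427). The other Traf1 probe set was not lower in lymph node Tregs (9.88 ± 0.50) than in Foxp3+ CD24lo cells (9.75 ± 0.30).

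In naive T cells against Foxp3- CD24lo cells, Tnfsf11 was 4.9-fold lower (-2.29 ± 0.18, adjusted p = 1.4e-09), Tnfrsf1b 3.06-fold lower (-1.62 ± 0.16, adjusted p = 3.86e-08) and Tnfrsf4 1.68-fold lower (-0.75 ± 0.18, adjusted p = 0.00368). Ltb was higher (0.35 ± 0.10, adjusted p = 0.0144), a call lost without Foxp3- CD24lo replicate 1 (0.28, adjusted p = 0.0913) or naive replicate 2 (0.33, adjusted p = 0.0585). These 1 risen and 3 fallen genes stand against 14.6% of all genes that passed. The lymph node difference exceeded the CD24lo difference for Tnfsf11 (2.81 ± 0.26, adjusted p = 3.08e-08) and Tnfrsf1b (2.03 ± 0.22, adjusted p = 4.1e-07) and was smaller for Lta (-0.90 ± 0.17, adjusted p = 0.000475), where 11% of all genes passed. Of 7 NK and NKT markers 6 fell between these groups and so did 3 of 4 gamma delta markers, while the summed level of 5 B cell markers was 11.31 to 11.44 in naive T cells and 11.93 to 12.27 in Tregs, against 9.68 to 10.23 in Foxp3- and 10.51 to 10.66 in Foxp3+ CD24lo cells. Their part in these differences was not tested.

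The order of the group means differed between the genes. For Tnfrsf4 and Tnfrsf18 the 3 thymic Foxp3+ groups came first and naive T cells last, and for Tnfrsf1b lymph node Tregs came first (10.22 ± 0.16), with arrays above those of Foxp3+ CD24lo cells. For Tnfrsf9 the precursors came first (10.59 ± 0.50), but their arrays overlapped those of Foxp3+ CD24hi cells. The brighter of its other probe sets also put precursors first (9.79 ± 0.80), again with overlap. For Tnfsf11 Foxp3- CD24lo cells came first, without overlap with the precursors, and naive T cells last. The spread of the group means was wide for Tnfrsf9 and Tnfrsf4, with 23.9-fold and 23.5-fold between the highest and the lowest mean, and narrow for Ltb (1.71-fold) and Cd27 (1.66-fold).

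Correlations of the 9 group means describe how alike the patterns were. They were 0.98 between Tnfrsf4 and Tnfrsf18, 0.98 between Tnfrsf4 and Tnfrsf9 and 0.93 between Ltb and Traf1, while Tnfsf11 lay between -0.46 and 0.21 with the other 8. Of 1580 genes with a spread of group means of at least 0.5, Dusp4 was closest to Tnfrsf4 (0.98), Tnfrsf18 (0.99) and Tnfrsf9 (0.99), Plagl1 and Cish to Lta (0.99 each), Kcnf1 to Tnfrsf1b (0.98) and Ociad2 to Tnfsf11 (0.94). The points are the same 9 group means throughout, so the values are descriptive.

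The other genes of the superfamily were counted in the same way. Over all genes 8.38% rose and 9.65% fell at CD24hi, 8.66% and 6.62% at CD24int, 9.85% and 11.2% at CD24lo, and 8.01% and 4.35% in lymph node. Of 22 other receptors measured, 2 rose and 3 fell at CD24hi, 4 rose and 4 fell at CD24int and at CD24lo, and 2 rose and 2 fell in lymph node. Tnfrsf25, the death-domain receptor for TL1A, was 2.36 ± 0.15 higher in Foxp3+ cells at CD24hi and 2.07 ± 0.15 at CD24lo, and Tnfrsf19 (TROY) was 1.74 ± 0.22, 2.50 ± 0.22 and 1.62 ± 0.22 higher at the 3 levels and 1.04 ± 0.22 in lymph node. Tnfrsf1a, the death-domain receptor for TNF, went the other way, -0.97 ± 0.15 at CD24hi, -0.67 ± 0.15 at CD24int and -0.50 ± 0.15 at CD24lo. Tnfrsf13b (TACI) was 0.71 ± 0.20 higher at CD24int and 0.92 ± 0.20 in lymph node, and Fas 1.11 ± 0.23 higher at CD24lo.

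Of 11 other ligands measured, 2 rose and 2 fell at CD24hi, 1 rose and 2 fell at CD24int, 3 rose and 5 fell at CD24lo, and 1 rose and 4 fell in lymph node. At CD24lo Fasl, the ligand of Fas, was -4.10 ± 0.40 and Tnfsf14 (LIGHT) -1.99 ± 0.23, with Foxp3- CD24lo cells at 7.49 ± 0.30 and 6.84 ± 0.45, the group with the NK, NKT and gamma delta markers. Tnf, which lies between Ltb and Lta, was lower in Foxp3+ cells in the thymus (-0.83 ± 0.15, -0.70 ± 0.15 and -1.22 ± 0.15), opposite to both of its neighbours. Tnfsf8 (CD30 ligand) was higher in Foxp3+ cells at CD24lo (1.59 ± 0.27) and lower in lymph node Tregs (-1.14 ± 0.27). Tnfsf4, the ligand of OX40, was 7.42 ± 0.38 in precursors and 5.00 to 5.94 as a mean elsewhere, 2.07 ± 0.20 above Foxp3- CD24hi and 2.03 above Foxp3+ CD24hi cells (-2.03 ± 0.20 as Foxp3+ minus precursor). The probe sets of the other partners were dim with little range, with group means of 5.11 to 5.63 for Tnfsf9 (4-1BB ligand), 3.52 to 3.96 for Cd70, 4.79 to 5.13 for Tnfrsf11a (RANK) and 5.19 to 5.70 for Ltbr.

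Of 20 other signalling genes measured, 6 rose at each CD24 level and 4 in lymph node, while 1, 0, 1 and 2 fell. Birc3, which encodes the ubiquitin ligase cIAP2 recruited by TRAF2, was 1.27 ± 0.10, 1.17 ± 0.10 and 1.74 ± 0.10 higher in Foxp3+ cells and 0.76 ± 0.10 in Tregs, and Birc2, which encodes cIAP1, 0.64 ± 0.13, 0.82 ± 0.13 and 1.20 ± 0.13 higher in the thymus. Map3k14, the NF-kB-inducing kinase of the alternative pathway, was lower in lymph node Tregs (-0.99 ± 0.10). Traf2, the partner of TRAF1, lay between 8.52 and 8.88 in all groups. The medians of the other receptors, ligands and signalling genes were 0.04, -0.03 and 0.20 at CD24hi, beside 0.00 over all genes, and these lists too were drawn up with earlier results known.

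**Figure D4:**
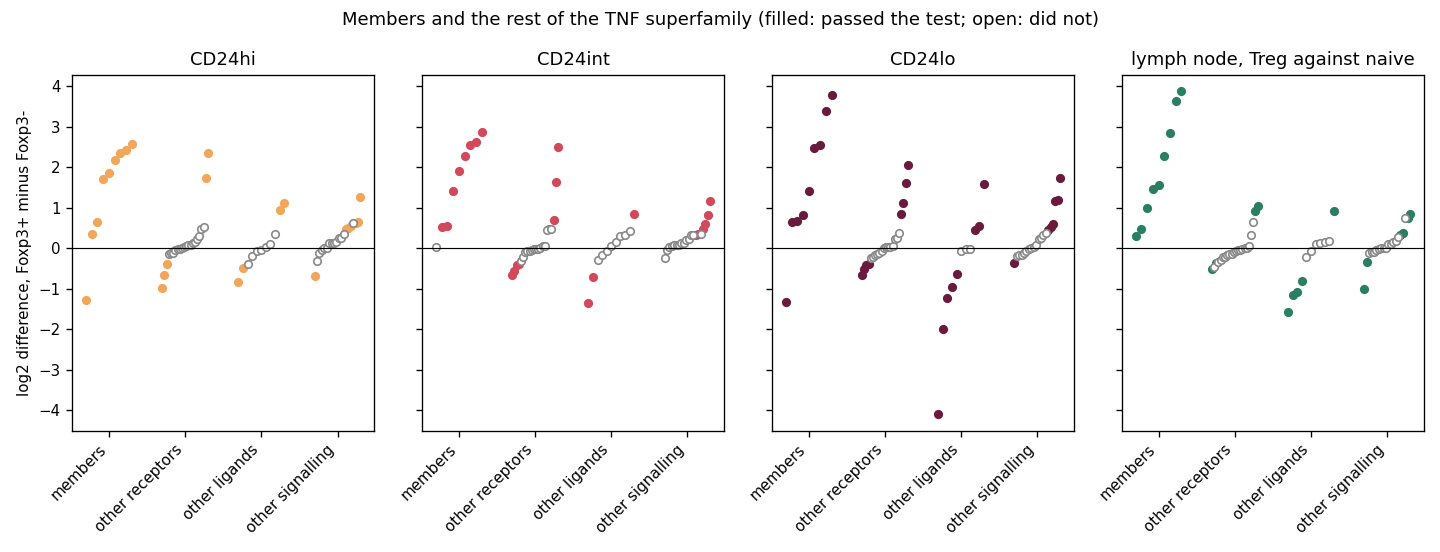
Log2 difference between Foxp3+ and Foxp3- cells (vertical axis) for the 9 genes and for the other receptors, ligands and signalling genes, in 1 panel per CD24 level and for lymph node, with filled points for genes that passed. The 9 genes reach 3.79 at CD24lo and 3.88 in lymph node, and the lowest point is Fasl at CD24lo (-4.10).

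Further probe sets gave the same directions by Foxp3 where they had signal. The other probe set of Tnfsf11 correlated with the first at 0.98 over the group means and gave -1.43 ± 0.21 at CD24hi, -1.15 ± 0.21 at CD24lo and 1.11 ± 0.21 in lymph node. That of Traf1 (0.97) gave 2.39 ± 0.32 at CD24hi, and the brighter of the others of Tnfrsf9 (0.99) gave 4.46 ± 0.48 in lymph node. Between thymus and lymph node the Traf1 probe sets differed. The other one was 9.88 ± 0.50 in lymph node Tregs and 9.75 ± 0.30 in Foxp3+ CD24lo cells, where the first was lower in Tregs. It was 8.11 ± 0.46 in naive T cells and 7.73 ± 0.31 in Foxp3- CD24lo cells, where the first was nearly level. The other probe set of Tnfrsf1b was dim (mean 5.99) and passed in 0 comparisons, with 0.56 ± 0.25 at CD24hi, and the faintest of Tnfrsf9 (mean 3.04) also passed in 0. No comparison had probe sets of a gene passing in opposite directions.

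**Figure D5:**
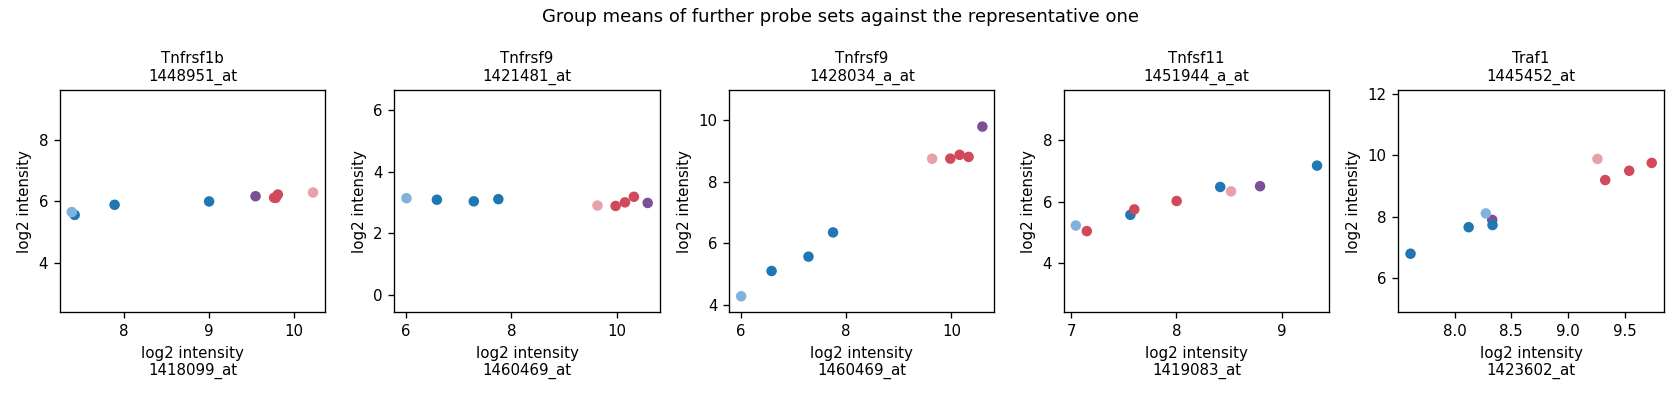
Group means (log2 intensity) of each further probe set (vertical axis, equal span in all panels) against the one that represents the gene (horizontal axis), with 9 points for the groups, red for Foxp3+, pink for lymph node Tregs, purple for precursors, blue for Foxp3- and light blue for naive T cells. The further probe sets of Tnfsf11, Traf1 and 1 of Tnfrsf9 follow the first, while 1 of Tnfrsf1b (0.73 from lowest to highest mean) and 1 of Tnfrsf9 (0.30) are nearly flat.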

How the data were processed

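Biotin-labelled target for Affymetrix 3' arrays was made from 50 ng of total RNA, per the labels' protocols. The authors deposited intensities processed with RMA, per the submitters' processing notes, and its settings are not given in the sources used here. They ran from 3.55 to 24083, were taken as linear, and were transformed to log2 here, with no constant added. Of 45101 probe sets, 34958 had a single gene symbol, 932 several and 9211 none. Where several single-symbol probe sets held a gene, the one of highest mean level stood for it (18194 genes), and symbols were checked against RefSeq (0 changed).

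All 27 arrays entered 1 fit with a mean for each of the 9 groups, in limma 3.58.1 under R 4.3.3, with empirical Bayes moderation. P-values are two-sided and adjusted by Benjamini-Hochberg over 18194 genes within each of 18 comparisons, 3 of them added after the values were seen. The procedure was tested on simulated data in which arrays varied independently, so deviations shared between arrays were not covered. The 9 genes and the lists were chosen with earlier results of these data known. The rule for naming took the 9 genes, the sort genes, their partner ligands and receptors, up to 3 passing genes with the largest difference per list, and the 2 genes most alike per member.

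Replicate numbers are the leading digit of the labels' description codes, whose meaning is not stated. Same-numbered arrays deviated together (every correlation over 0.1) in 11 of 18 comparisons, and a fit blocked by replicate number was an alternative. Others were quantile normalization, the mean of all probe sets, all probe sets tested, a filter on dim genes (log2 mean under 6), a pseudocount of 16, the compared groups alone, and leaving out each array. Precision is limited by the number of arrays, with a typical standard error of 0.15 for a difference and 0.21 for an interaction.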

Additional observations from a re-analysis of the deposited data

Results flagged for a closer look

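The difference between Foxp3+ and Foxp3- cells changed between CD24 levels or between thymus and lymph node, by a test of the change itself in limma, for 10 results. Between CD24hi and CD24int it changed by 1.30 for Tnfsf11, where 1.54% of all genes passed. Between CD24int and CD24lo it changed by 1.17 for Tnfrsf4, -1.09 for Tnfrsf1b and -1.37 for Tnfsf11, where 4.97% passed. Between CD24hi and CD24lo it changed by 1.61 for Tnfrsf4, 0.69 for Tnfrsf18 and -1.54 for Tnfrsf1b, where 8.54% passed. From CD24lo to lymph node it changed by 2.81 for Tnfsf11, 2.03 for Tnfrsf1b and -0.90 for Lta, where 11% passed. The Tnfrsf18 call was lost on leaving out any of several single arrays, that with liver genes among them. The Tnfrsf1b call between CD24int and CD24lo was lost when probe sets were averaged (adjusted p = 0.207 in limma). The results at CD24lo rest on the Foxp3- group with high innate-like T cell markers, and the part of those markers was not tested.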

How the results depend on the processing

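No result that passed in either fit changed direction under the alternatives run. With the replicate block, as a paired fit, the number of the 9 genes that passed went to 4 (Foxp3- CD24int against CD24hi), 5 (Foxp3- CD24lo against CD24int), 5 (lymph node Tregs against Foxp3+ CD24lo) and 2 (Foxp3+ CD24lo against CD24hi), and no call on the 9 genes was lost. Over all genes the block gave 2671 for precursors against Foxp3- CD24hi (1658 without it), 4443 for Foxp3+ CD24hi against precursors (2917), 210 and 23 for Foxp3+ CD24int against CD24hi and CD24lo against CD24int (52 and 3), 1822 and 3407 for the same steps in Foxp3- cells (911 and 2182), 1922 for lymph node Tregs against Foxp3+ CD24lo (1078), 1300 for Foxp3+ CD24lo against CD24hi (564), and 1041, 1533, 2490 and 3067 for the interactions CD24hi to CD24int, CD24int to CD24lo, CD24hi to CD24lo and CD24lo to lymph node (281, 905, 1554 and 1996). Where the numbers did not pair the samples, the block also let Tnfrsf18 (adjusted p = 0.0442) and Tnfrsf9 (0.0175) pass for naive T cells against Foxp3- CD24lo, Ltb (0.031) in the lymph node interaction and Tnfrsf9 (0.0258) in that of CD24hi to CD24lo. With the compared groups alone, which leaves fewer arrays, the counts over all genes were 1001 and 1804 for the 2 precursor comparisons, 0 and 0 for the 2 Foxp3+ steps (of 52 and 3, and 1068 and 722 at an unadjusted limma p under 0.05), 552 for Foxp3- CD24int against CD24hi, 166 for the first interaction and 368 for Foxp3+ CD24lo against CD24hi, where 0 of the 9 genes passed (Tnfsf11 adjusted p = 0.0656). That fit also lost Cd27 at CD24hi (adjusted p = 0.0902), Ltb in lymph node (0.0813) and in naive against Foxp3- CD24lo cells (0.07), Traf1 in precursors (0.0651), Tnfrsf18 in Foxp3+ CD24hi against precursors (0.0599) and Cd27 in Foxp3- CD24lo against CD24hi cells (0.103). Foxp3+ CD24lo against CD24int gave 10 genes with the mean of all probe sets, 10 without dim genes and 16 with the pseudocount, and CD24int against CD24hi gave 87 without dim genes. Averaging probe sets lost Tnfrsf1b in the interaction of CD24int to CD24lo (-0.54, adjusted p = 0.207), since its other probe set is dim. Cd27 passed in Foxp3+ CD24hi against precursors after quantile normalization (0.0307), with the pseudocount (0.0342) and without dim genes (0.0342), and Ltb in the lymph node interaction with the pseudocount (0.0408). Leaving out 1 array gave 14 to 73 genes for the first Foxp3+ step (20, 14 and 25 without CD24int replicate 1 or 2 or CD24hi replicate 3), 1 to 7 for the second (1, 7 and 1 without CD24int replicate 1, 2 or 3), 346 to 453 for Foxp3+ CD24lo against CD24hi (346 and 364 without CD24lo replicate 2 or 3, and 0 to 1 of the 9) and 185 to 313 for the first interaction (185 without Foxp3- CD24int replicate 1), and 1 to 3 of the 9 for lymph node Tregs against Foxp3+ CD24lo.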

Other observations

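Same-numbered arrays lay on the same side of their group mean for some of the 9 genes. Traf1 was above the group mean on replicate 1 in 9 of 9 groups and on replicate 3 in 0 of 9, and Lta on replicate 1 in 9 of 9. Tnfrsf9 was above it on replicate 3 in 8 of 9 groups, by 0.33 on average, and on replicate 2 in 0 of 9. Tnfrsf4 was above it on replicate 1 in 0 of 9. The labels do not say what the number marks.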
